A study of Mus musculus with 16 samples.

Results

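The genes described here encode the subunits of the receptors that respond to GABA and glycine, the inhibitory transmitters of the brain, and the subunits of the glutamate receptors other than the NMDA type. They were the rows of the count table whose symbol has the form of a GABA-A subunit (Gabra, Gabrb, Gabrg, Gabrd, Gabre, Gabrq or Gabrr), a GABA-B subunit (Gabbr), a glycine receptor subunit (Glra, Glrb), or an AMPA (Gria), kainate (Grik), delta (Grid) or metabotropic (Grm) glutamate receptor. This rule took 39 of 14504 rows, of which 20 were inhibitory (14 GABA-A, 2 GABA-B and 4 glycine) and 19 were excitatory (4 AMPA, 6 kainate, 2 delta and 7 metabotropic). The class names stand for the receptor families, GABA and glycine against glutamate, and not for the effect of each receptor on a cell. The symbol Grik2 stood on 2 rows, the protein-coding gene and a processed pseudogene that lies next to it on chromosome 10 and the same strand. The pseudogene row (ENSMUSG00000111374.1) is counted with the kainate family and its reads cannot be told apart with certainty from those of Grik2. Every one of the 39 rows had at least 10 reads in every library.

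Poly(A) RNA of the dorsal raphe nucleus was sequenced in 16 male C57BL/6 mice, aged 10 to 12 weeks per the study's methods. Stressed mice had gone through 30 days of chronic social stress and were sorted by their behaviour into a passive-coping phenotype (PS, dep1 in the labels) and an active-coping phenotype (AS, dep2), and unstressed mice served as controls. Each mouse received saline or the glucocorticoid receptor agonist dexamethasone (DEX, 2 mg/kg), and tissue was taken 6 h later. The groups held 3 control saline, 3 control DEX, 2 PS saline, 3 PS DEX, 3 AS saline and 2 AS DEX libraries, named below, where a single library matters, as in the labels (con, dep1 or dep2, then sal or dex, then the animal's number). All mice shared one genotype and carried no transgene, the tissue was punched from cryosections, and the study left out DEX-treated stressed libraries with a low level of the serotonin enzyme gene Tph2. The raphe punch is a mixture of cells, so fewer cells of a type and less RNA per cell cannot be told apart.

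The libraries held 38207157 to 62447298 reads in the genes of the table, and the values below are those reads divided by a size factor per library (normalized counts). All 11 listed markers of serotonin neurons were in the table, with a summed level of 323783 to 485911 normalized counts per library. Genes of other cells and regions were measured as well. The summed level of 6 ependymal markers ran from 617 to 11634 normalized counts and that of 4 of 6 listed motor neuron markers from 1637 to 8890. The glycine transporter Slc6a5, the marker used for glycine neurons, ran from 76.0 to 3198 normalized counts. No batch is given in the labels.

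GABA-A receptors are chloride channels built of 5 subunits, most often from the alpha, beta and gamma classes, and glycine receptors are related channels of alpha subunits with the beta subunit Glrb. GABA-B receptors are a pair of G protein-coupled subunits that slow firing through potassium and calcium channels. AMPA and kainate receptors carry fast excitatory current, delta receptors organise synapses, and the metabotropic receptors act through G proteins. Serotonin neurons of the dorsal raphe are held in check by local and incoming GABA, and glutamate from the cortex, hypothalamus and habenula drives them. Glucocorticoids act through a receptor that binds DNA as a pair, each partner of which recognises the hexamer TGTTCT or a near variant of it.

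The clearest difference was in Gabrr2, which encodes the rho2 subunit of the GABA-A family, a subunit that forms GABA-gated channels insensitive to bicuculline. Its level was higher in all 8 DEX libraries than in all 8 saline libraries. It was also the least abundant of the 39 rows. The gene lies at chr4:33062999-33095865 on the plus strand of GRCm38. Of its RefSeq promoter (250 bases before to 50 after the start at position 33063112), the 137 bases before the first annotated GENCODE start are printed here because Gabrr2 had the smallest p of the members for DEX in the average over phenotypes. The capitals mark the single match to TGTTCT, 167 bases before the RefSeq start, on the plus strand.
Gabrr2, chr4:33062862-33062998, plus strand, GRCm38.p6: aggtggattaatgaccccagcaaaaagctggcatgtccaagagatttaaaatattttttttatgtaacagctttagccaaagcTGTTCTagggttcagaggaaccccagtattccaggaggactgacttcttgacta
The hexamer TGTTCT or its reverse complement AGAACA occurred in 19% of the 32851 RefSeq promoters of 300 bases and in 15.2% of 33 promoters of 26 matched members, which were promoters of Gabrr2, Gabrb2, Gabrg1 and Grm8. The full palindrome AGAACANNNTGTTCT was in 3 of the 32851 promoters and in 0 of the 33. A match is a description of the letters and no evidence of binding.

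In control mice Gabrr2 stood at 45.6, 45.8 and 30.4 normalized counts in the 3 saline libraries, and at 165.0, 92.3 and 182.5 in the 3 DEX libraries. Every DEX library was above every saline library. In PS mice it stood at 60.4 and 47.6 in the saline libraries, and at 101.05, 181.4 and 134.2 in the DEX libraries. In AS mice the saline libraries held 42.5, 86.2 and 30.2, and the DEX libraries held 152.5 and 180.0. The lowest of its raw counts was 33 reads, so the single values are imprecise. The groups did not overlap in any phenotype.

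On the log2 scale (log2 of the normalized count plus 1, limma fit over all 6 groups, adjusted by Benjamini-Hochberg over 14504 genes, called at an adjusted p under 0.1), Gabrr2 rose under DEX by 1.79 in controls (SE 0.379, adjusted p = 0.045). The difference was 1.32 in PS (SE 0.423, adjusted p = 0.463) and 1.76 in AS (SE 0.423, adjusted p = 0.117), which did not pass. Averaged over the phenotypes it was 1.62 (SE 0.236, 95% interval 1.12 to 2.13, adjusted p = 0.001). The differences of the DEX response between phenotypes did not pass for Gabrr2 or for any other row. The call in controls rested on single libraries: the adjusted p was 0.194 without con_dex_101, 0.261 without con_dex_122, 0.109 without con_sal_104 and 0.106 without con_sal_114, and it was 0.151 when only the 2 control groups entered the fit. The averaged call held in all alternatives that gave a value, with adjusted p from 7.88e-09 to 0.00639, but a filter at a mean of 100 normalized counts removed the gene, whose mean was 98.6. The genes next to it in the table were Ube2j1, which ends 10636 bases before it on the same strand, and Pm20d2, 78365 bases after it. Their averaged DEX differences were -0.08 (SE 0.071) for Ube2j1 and 0.09 (SE 0.138) for Pm20d2.

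Markers of several glial cells differed with DEX as well. The summed level of the 7 microglia markers, all in the table, was 4985 to 5262 normalized counts in control saline and 4204 to 4415 in control DEX, 4842 to 5141 in PS saline and 4200 to 4425 in PS DEX, and 4988 to 6842 in AS saline and 4478 to 4890 in AS DEX. The groups did not overlap in any phenotype. In the averaged comparison 6 of these 7 markers were below 0. Cx3cr1, P2ry12 and Aif1 were called down (adjusted p under 0.1 by limma, 4.31% of all genes called). Of 7 oligodendrocyte markers 6 were below 0 and 3 were called down, Ermn (-0.62), Cnp (-0.37) and Mog (-0.43) on the log2 scale. Of 4 genes listed here as markers of their precursors, not all of them particular to these cells, Vcan (0.52) and Pdgfra (0.30) were called up and Sox10 (-0.44) down. Of 8 astrocyte markers, 5 of them above 0, Fgfr3 (0.55) was called up and S1pr1 (-0.67) down. All the markers of these 3 lists were in the table. The summed level of the oligodendrocyte markers overlapped between saline and DEX in controls (133935 to 213096 and 139749 to 178690 normalized counts) and in PS (129399 to 189149 and 128192 to 179579). It overlapped narrowly in AS as well, at 148570 to 185493 in AS saline and 143140 to 149020 in AS DEX. That of the precursor markers was 4640 to 6493 in control saline and 6020 to 6493 in control DEX, 5636 to 5839 in PS saline and 5853 to 6180 in PS DEX, and 5275 to 6473 in AS saline and 6482 to 6667 in AS DEX. That of the astrocyte markers was 60020 to 88253 and 85615 to 88276 in control saline and DEX, 81947 to 91515 and 88414 to 94718 in PS, and 87513 to 95863 and 87785 to 89938 in AS. The part of cell makeup in the result for Gabrr2 was not tested.

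**Figure D1:**
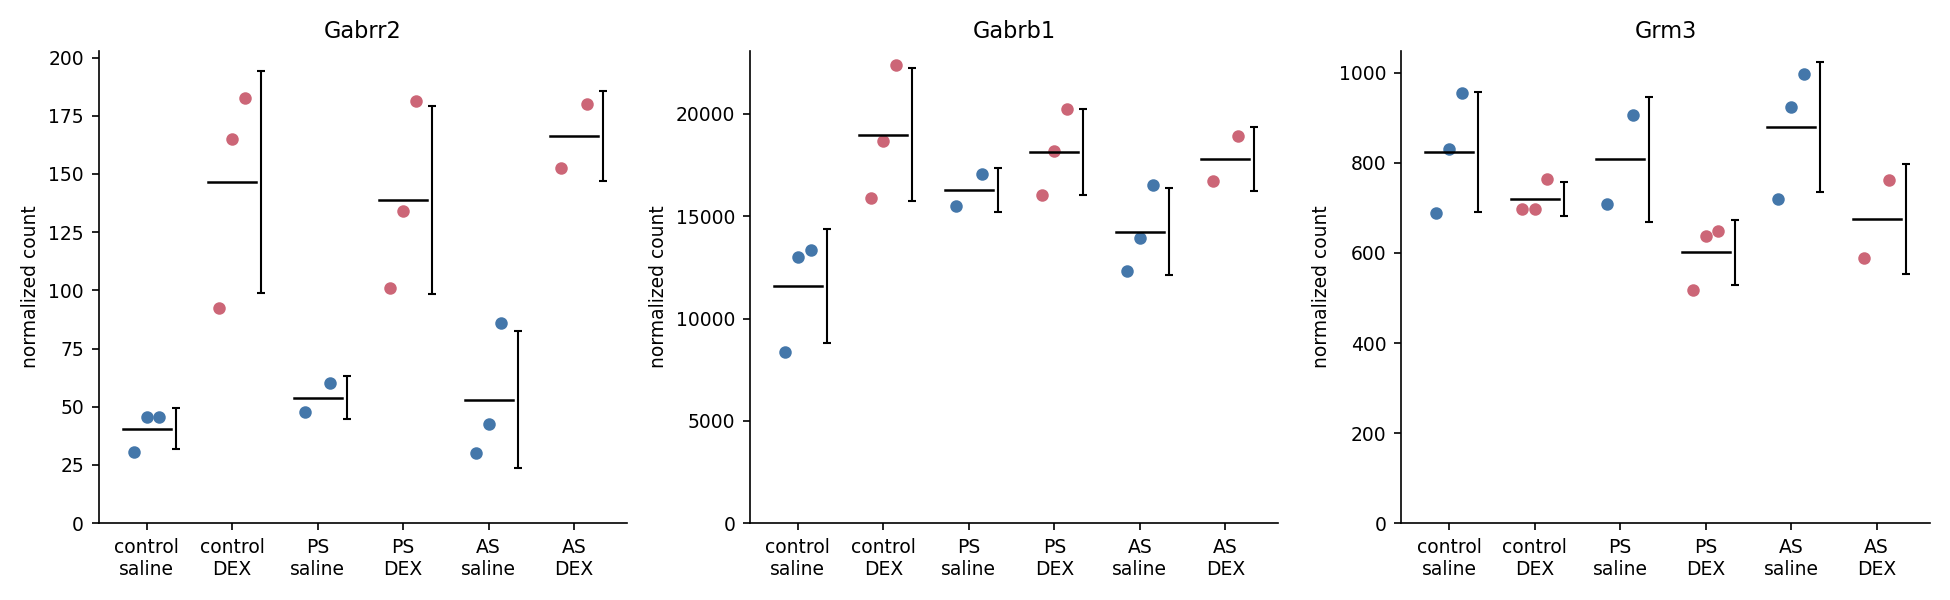
Normalized counts of Gabrr2, Gabrb1 and Grm3 (vertical axes, from 0) in the 6 groups. Points are libraries, horizontal lines are group means and bars are SD (n = 2 or 3). The 8 DEX libraries of Gabrr2 sit between 92.3 and 182.5, all above the 8 saline libraries, while the groups of Gabrb1 overlap in PS.

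The other row called was Gabrb1, which encodes the beta1 subunit of GABA-A receptors (ENSMUSG00000029212.11, chr5:71658113-72149037). The control saline libraries held 13366, 8370 and 12993 normalized counts, and the control DEX libraries held 18699, 15892 and 22385. The groups did not overlap, and the value of con_sal_104, 8370, was the lowest of all 16. In PS the saline libraries held 17051 and 15508 and the DEX libraries 20217, 16026 and 18176, which overlap. In AS the saline libraries held 16507, 13922 and 12300 and the DEX libraries 16699 and 18906, and both DEX values lay above the saline values. Gabrb1 rose by 0.73 in controls (SE 0.18, adjusted p = 0.0957) and by 0.40 in the average over phenotypes (SE 0.112, adjusted p = 0.0788). The PS minus control difference of the DEX responses was -0.58 (SE 0.27, adjusted p = 1), so a difference between phenotypes was not shown. Its adjusted p in controls ran from 0.00884 to 0.463 over the alternatives and was 0.269 without con_dex_101, 0.463 without con_dex_122 and 0.338 without con_sal_104. The annotated start of Gabrb1 overlaps Gabra4 on the opposite strand by 196 bases, and the counting was not stated to use strand. Gabra4, which encodes the alpha4 subunit, had an averaged DEX difference of -0.10 (SE 0.107).

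For DEX in controls, limma called 0 of the GABA and glutamate neuron markers measured (1.26% of all genes were called). Some of their sums or scores still did not overlap between the control groups. The summed level of 2 of 3 listed glutamate neuron markers was 11154 to 16257 normalized counts in control saline and 17558 to 20823 in control DEX, without overlap. The sum follows the more abundant Slc17a8, which differed by 0.72 in controls (SE 0.287, adjusted p = 0.342), while Slc17a6 differed by -0.33 (SE 0.37, adjusted p = 0.742). The mean deviation of both genes on the log2 scale overlapped, at -0.19 to 0.05 in control saline and -0.0043 to 0.34 in control DEX. The summed level of 6 of 10 listed GABA neuron markers was 49967 to 63918 in control saline and 42529 to 53127 in control DEX, which overlap. Their score, the mean deviation on the log2 scale, was 0.053 to 0.27 in control saline and -0.37 to -0.096 in control DEX, without overlap. All 6 were below 0 for DEX in controls, and 2 reached an unadjusted p under 0.05 by limma (12.1% of all genes did). With the score of the GABA neuron markers as a covariate, limma called 7 rows in controls and Gabrb1 differed by 0.97 (adjusted p = 0.0233). The score itself separated the control groups, so in controls this fit cannot tell its part from that of DEX. The part of the glutamate neuron markers in the result for Gabrb1 was not tested.

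Among the 39 rows, 2 were called for DEX in controls, where 1.26% of all 14504 genes were called, and 5 reached an unadjusted p under 0.05 by limma (12.1% of all genes did). In PS 0 were called against 0.703% of all genes, with 2 at an unadjusted p under 0.05 by limma (4.69% of all genes) and 0 called by DESeq2 or edgeR. In AS 0 were called against 0.689%, with 2 at an unadjusted p under 0.05 (9.36% of all genes), 1 called by DESeq2 (Gabrr2, adjusted p = 0.0157) and 0 by edgeR. For the average over phenotypes 2 were called by limma, Gabrr2 and Gabrb1, against 4.31%, a share close to that of the rows. DESeq2 called 3 rows and 904 of all 14504 genes there. For any difference among the 6 groups 1 was called, Gabrr2 (adjusted p = 0.0328), against 1.57%.

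No excitatory receptor was called for DEX by limma. The nearest was Grm3, a metabotropic receptor that lowers cyclic AMP and is present on astrocytes as well as neurons. Its level was 830, 689 and 955 normalized counts in control saline and 697, 764 and 698 in control DEX libraries. In PS it was 709 and 906 under saline and 637, 649 and 519 under DEX, with every DEX value below both saline values. In AS it was 996, 719 and 924 under saline and 589 and 762 under DEX, which overlap. The average difference was -0.33 (SE 0.105, adjusted p = 0.145 by limma, 0.0547 by DESeq2). Gria2, the AMPA subunit that keeps the channel closed to calcium once edited, differed by 0.36 in controls (SE 0.143, adjusted p = 0.344), from 15908, 11575 and 18577 under saline to 20356, 18086 and 19587 under DEX. With a trend on gene length and GC content removed, the Gria2 difference in controls was -0.06, where the median over all genes was -0.039.

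Other members fell short of the threshold in the single phenotypes. Gabrg3 differed by 0.50 under DEX in controls (SE 0.216, adjusted p = 0.375), with overlapping groups. Glra1, the alpha subunit of adult-type glycine receptors, differed by 0.53 under DEX in controls (SE 0.222, adjusted p = 0.361), and its 3 DEX values (2685, 2521 and 3689 normalized counts) lay above the 3 saline values (2490, 1395 and 2376). In PS, Gabrg1, a gamma subunit, stood at 2713, 2668 and 2437 under DEX and at 1967 and 2266 under saline, a difference of 0.30 (SE 0.163, adjusted p = 1). In AS, Gria4, an AMPA subunit of fast kinetics, was at 11976 and 13379 under DEX and at 14335, 14571 and 17193 under saline, a difference of -0.27 (SE 0.115, adjusted p = 0.507). In AS, Glrb, the shared beta subunit of glycine receptors, was at 9150 and 9716 under DEX and at 11067, 10724 and 13766 under saline, a difference of -0.32 (SE 0.156, adjusted p = 0.535). dep2_sal_40 was the highest of its group for both Gria4 and Glrb.

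Described as families, the DEX differences were small beside Gabrr2. In controls 17 of 20 inhibitory rows and 13 of 19 excitatory rows were above 0, with median log2 differences of 0.163 and 0.107 against 0.004 over all genes. In PS 11 of 20 inhibitory and 5 of 19 excitatory rows were above 0, with medians of 0.024 and -0.098 against -0.004. In AS 11 of 20 inhibitory and 16 of 19 excitatory rows were above 0, with medians of 0.101 and 0.173 against -0.006. With a trend on length and GC removed, the excitatory median in controls was -0.05 against -0.039 over all genes. The inhibitory median in PS was then -0.04 against -0.019 over all genes. Over the average of the phenotypes all 6 kainate rows were above 0, between 0.03 and 0.21, and 5 of 7 metabotropic rows were below 0. No row of either family passed. The widest differences in AS apart from Gabrr2 were in Grik3, a kainate subunit, at 0.71 (dep2_sal_40 held 1244 normalized counts where the other saline libraries held 3220 and 3404), and these values rest on that library.

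For most members the data bound the averaged DEX difference. In 28 of the 39 rows its 95% interval lay within 0.5 on the log2 scale on either side of 0, and in 11 it reached further. Among the abundant receptors, Gabbr1 differed by -0.04 (95% interval -0.19 to 0.10), Glra2 by 0.02 (-0.15 to 0.19), Gria1 by 0.03 (-0.13 to 0.19) and Gria4 by -0.09 (-0.23 to 0.05). The interval was wide for Gabbr2, at 0.15 (-0.34 to 0.63), and for Grik3, at 0.21 (-0.26 to 0.69).

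**Figure D2:**
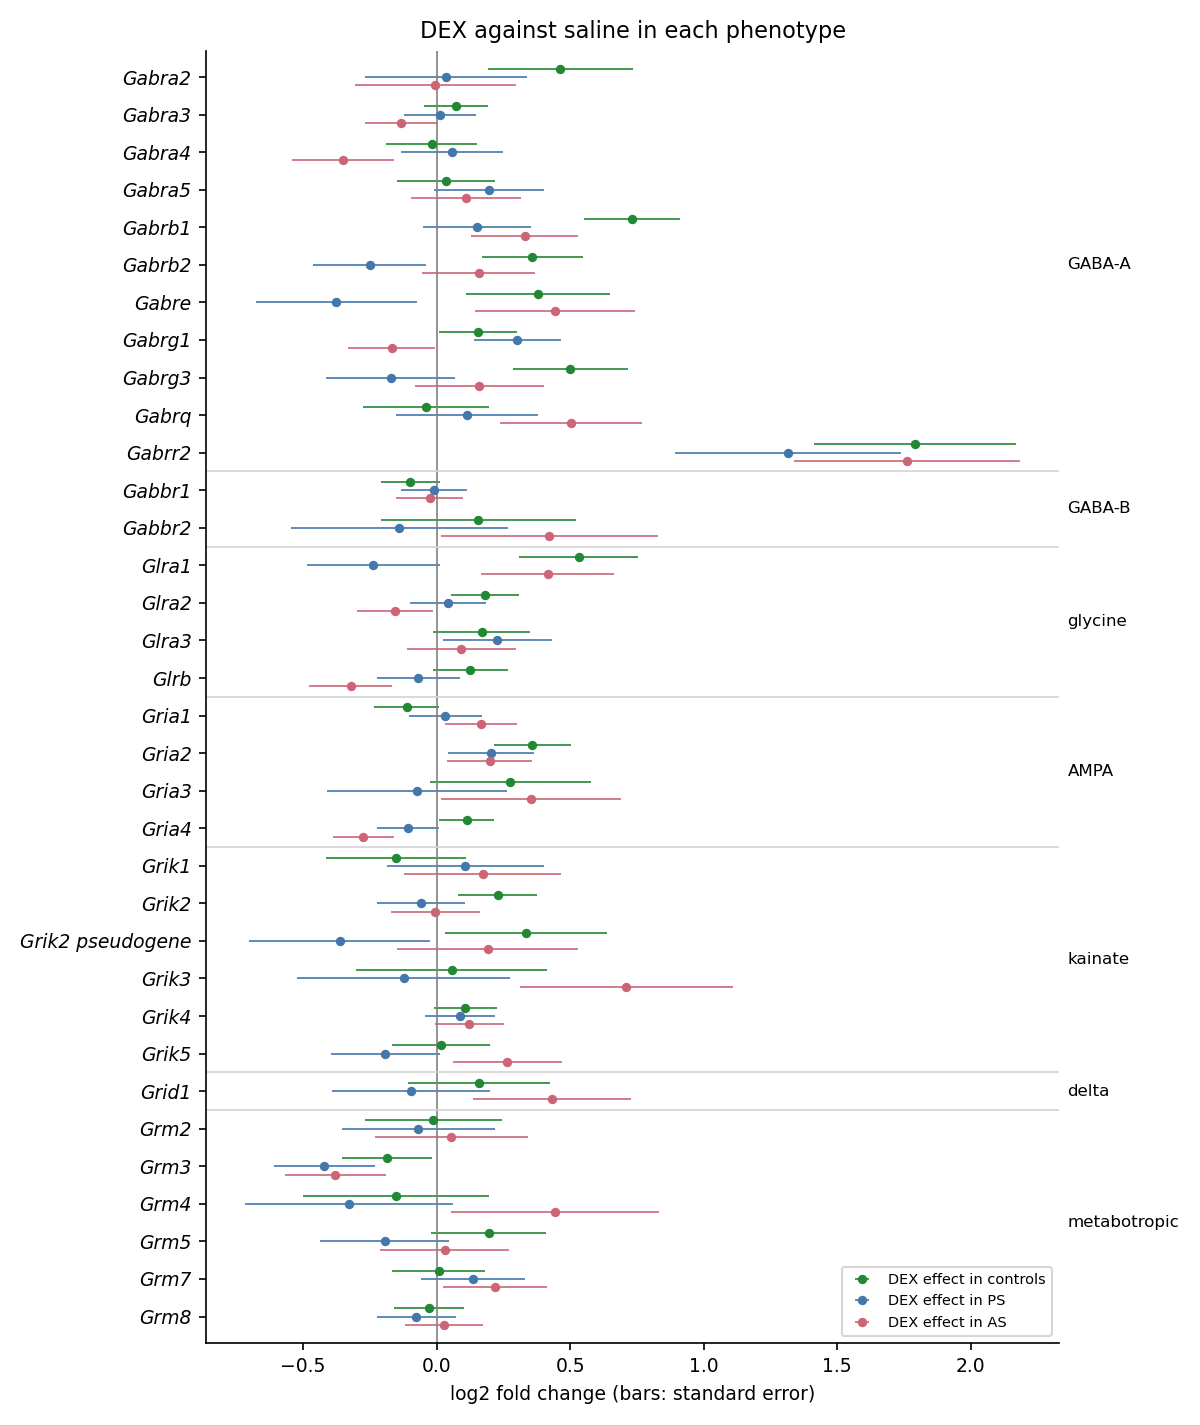
Log2 fold change of DEX against saline (horizontal axis) for 34 of the 39 rows, grouped by receptor family, in controls (green), PS (blue) and AS (red). Points are limma estimates and bars are standard errors. Gabrr2 lies at 1.32 to 1.79 in all 3 phenotypes and the other rows drawn lie between -0.42 and 0.73.

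Under saline 0 of the 39 rows were called between phenotypes in any of the 3 comparisons, and 0% of all genes were called in each. These comparisons share their groups in pairs, so they are not independent. At an unadjusted p under 0.05 by limma there were 3 rows for PS against control, where 7.67% of all genes did so, and 0 rows for each comparison with AS, and DESeq2 and edgeR called 0 of the rows in each. The share of the members is close to that of all genes, and their values are given as a description. Gabre, the epsilon subunit, enriched in the brainstem and hypothalamus, was at 528, 277 and 229 normalized counts in control saline and at 567 and 673 in PS saline, a difference of 0.94 (SE 0.301, adjusted p = 0.571). Both PS values lay above all 3 control values, and the control value of 528 lay close to them. Gabrg3, the gamma3 subunit, differed by 0.66 (SE 0.242), from 2007, 1194 and 1177 to 1940 and 2589, which overlap. Gabrb1 differed by 0.52 (SE 0.201). Of the 2 PS saline libraries, dep1_sal_68 held the highest value of all 16 libraries in 9 of the 39 rows. It gave the higher PS saline value of Gabre (673) and Gabrg3 (2589) and the lower one of Gabrb1 (15508).

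In AS against control under saline, Gabrb1 differed by 0.32 (SE 0.18), Gabre by 0.37 (SE 0.269) and Gabrg1 by 0.20 (SE 0.145), each with an adjusted p of 0.998. In AS against PS, Gabrg1 differed by 0.31 (SE 0.163), Gabre by -0.57 (SE 0.301) and Gabrg3 by -0.39 (SE 0.242), each with an adjusted p of 0.728. The median of the excitatory rows was 0.254 in PS against control, with 15 of 19 above 0, and -0.200 in AS against PS, with 4 of 19 above 0. With the length and GC trend removed these medians were 0.04 and -0.08, against -0.04 and 0.01 over all genes. The inhibitory medians were 0.039, 0.0999 and -0.058 in PS against control, AS against control and AS against PS. Under DEX 0 rows were called between phenotypes by limma, DESeq2 or edgeR, with 0% of all genes called in PS against control and in AS against PS and 0.00689% in AS against control. In AS against control under DEX, 2 of the rows reached an unadjusted p under 0.05 by limma, where 3.5% of all genes did so. These rows were Glrb at -0.38 (SE 0.156) and Gria4 at -0.25 (SE 0.115). For the 3 differences of DEX responses between phenotypes 0% of genes and 0 rows were called by limma, and DESeq2 and edgeR called 0 rows. At an unadjusted p under 0.05 by limma there were 3 rows in all, Glra1 (-0.77, SE 0.333) and Gabrb1 for PS minus control and Gria4 (-0.39, SE 0.155) for AS minus control. The shares of all genes were 2.1% for PS minus control, 4.02% for AS minus control and 2.9% for AS minus PS.

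**Figure D3:**
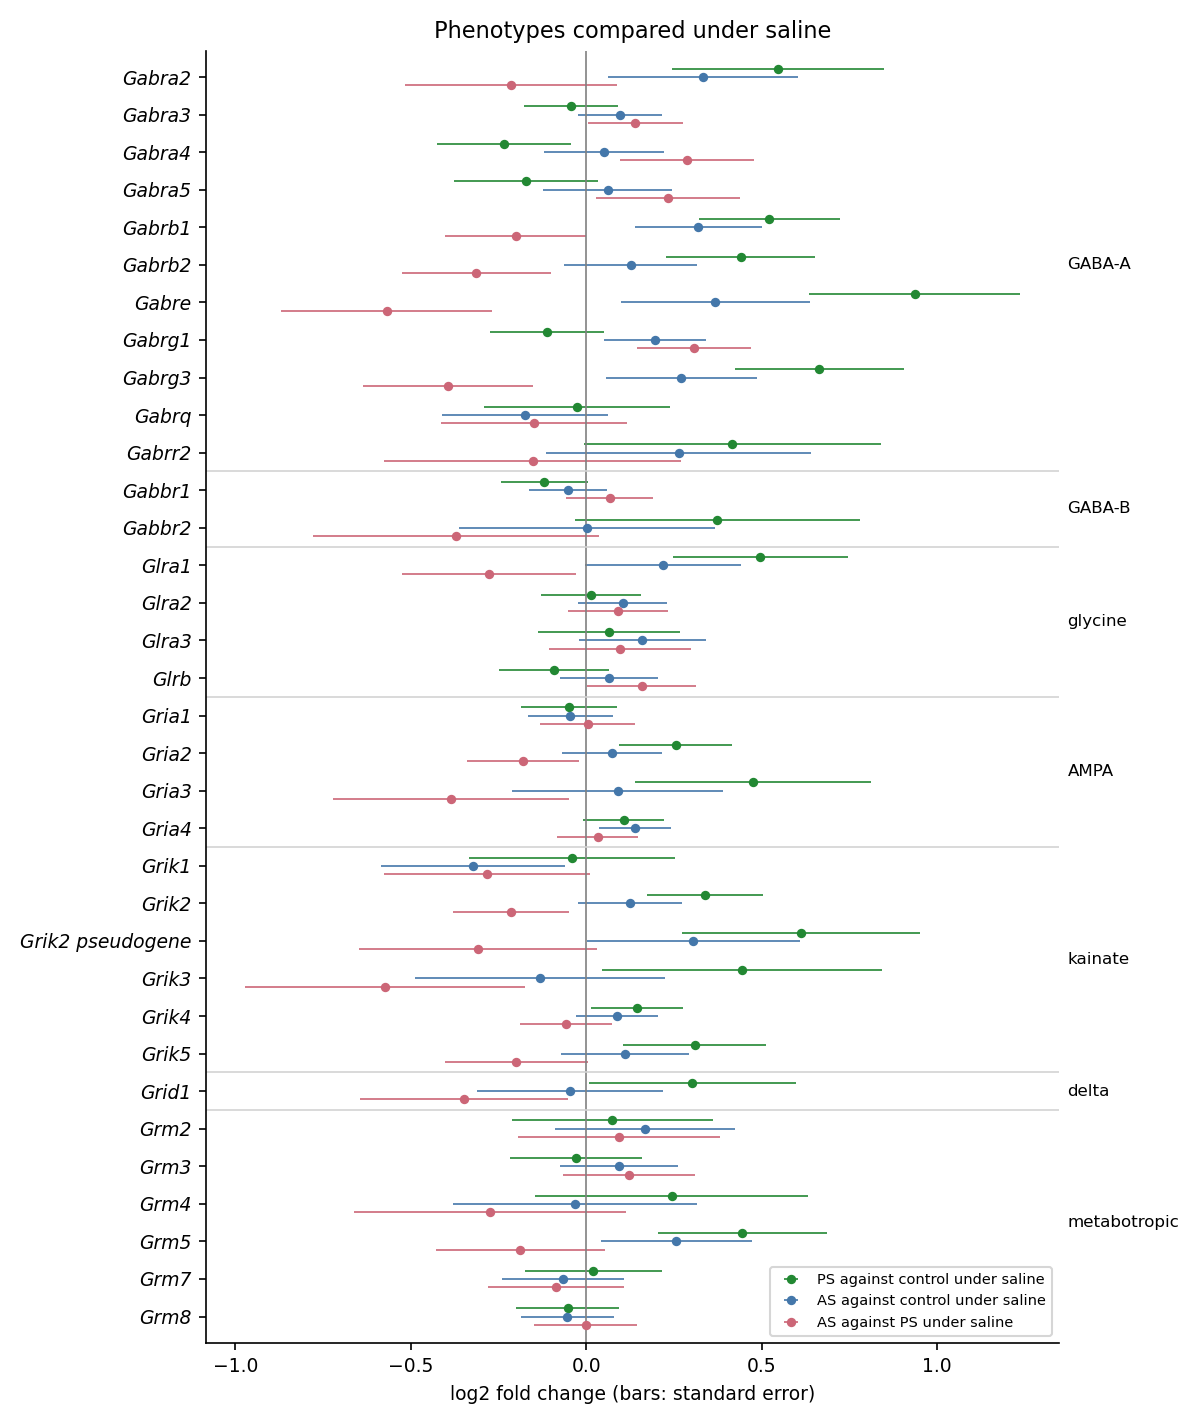
Log2 fold change between phenotypes under saline (horizontal axis) for 34 of the 39 rows by receptor family, for PS against control (green), AS against control (blue) and AS against PS (red). Points are limma estimates and bars are standard errors. The highest point is Gabre at 0.94 and 0 rows passed the threshold.

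Levels between genes are compared below as normalized counts per kb of merged exon, with the range over the 16 libraries. The GABA-B subunit Gabbr1 was the most abundant of all 39 rows, at 6639 per kb (5861 to 7826), and its partner Gabbr2, needed to bring the receptor to the surface, was at 1334 (619 to 1607). Of the glycine receptor genes, Glrb was highest at 2377 per kb (1905 to 3157) and Glra3 lowest at 285 (184 to 360). Among the glycine alpha subunits Glra2, the form that predominates early in life, made up 55.4% of the per-kb level and Glra1 35.2%. Of the GABA-A genes Gabrr2 was lowest at 46.8 per kb (14.3 to 86.7). Gabra3, an alpha subunit frequent in monoamine neurons, made up 30.3% of the level of the alpha subunits. Gabrq, the theta subunit found in monoamine neurons, stood at 451 per kb (246 to 611), and Gabre at 97.5 (48.3 to 142.0). Gabrb1 made up 38.7% of the level of the beta subunits. Its share was 34.6% in control saline and 41.1% in control DEX as group means.

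Among the excitatory rows the AMPA genes Gria4 at 2282 per kb (1900 to 2727) and Gria1 at 2098 (1740 to 2505) were highest, and their ranges overlapped. They made up 39.4% and 36.2% of the AMPA level, Gria2 made up 19.8% and Gria3 was lowest at 274 per kb (141 to 367). Of the kainate genes Grik5, a subunit that needs a partner to form a channel, was highest at 1260 per kb (889 to 1509) and Grik1 lowest at 101.5 (59.0 to 136.5). Grik4, Grik2 and Grik3 stood close together, at 394, 350 and 344 per kb. The delta gene Grid1 stood at 516 per kb (278 to 645). Of the metabotropic genes Grm7, a presynaptic receptor, was highest at 384 per kb (289 to 461), within the range of Grm5 at 376 (268 to 520), and Grm2 was lowest at 93.1 (67.3 to 129.9). The level per kb depends on the annotated exons, and Gria2 with 15548 bases of merged exon is lowered on this scale.

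**Figure D4:**
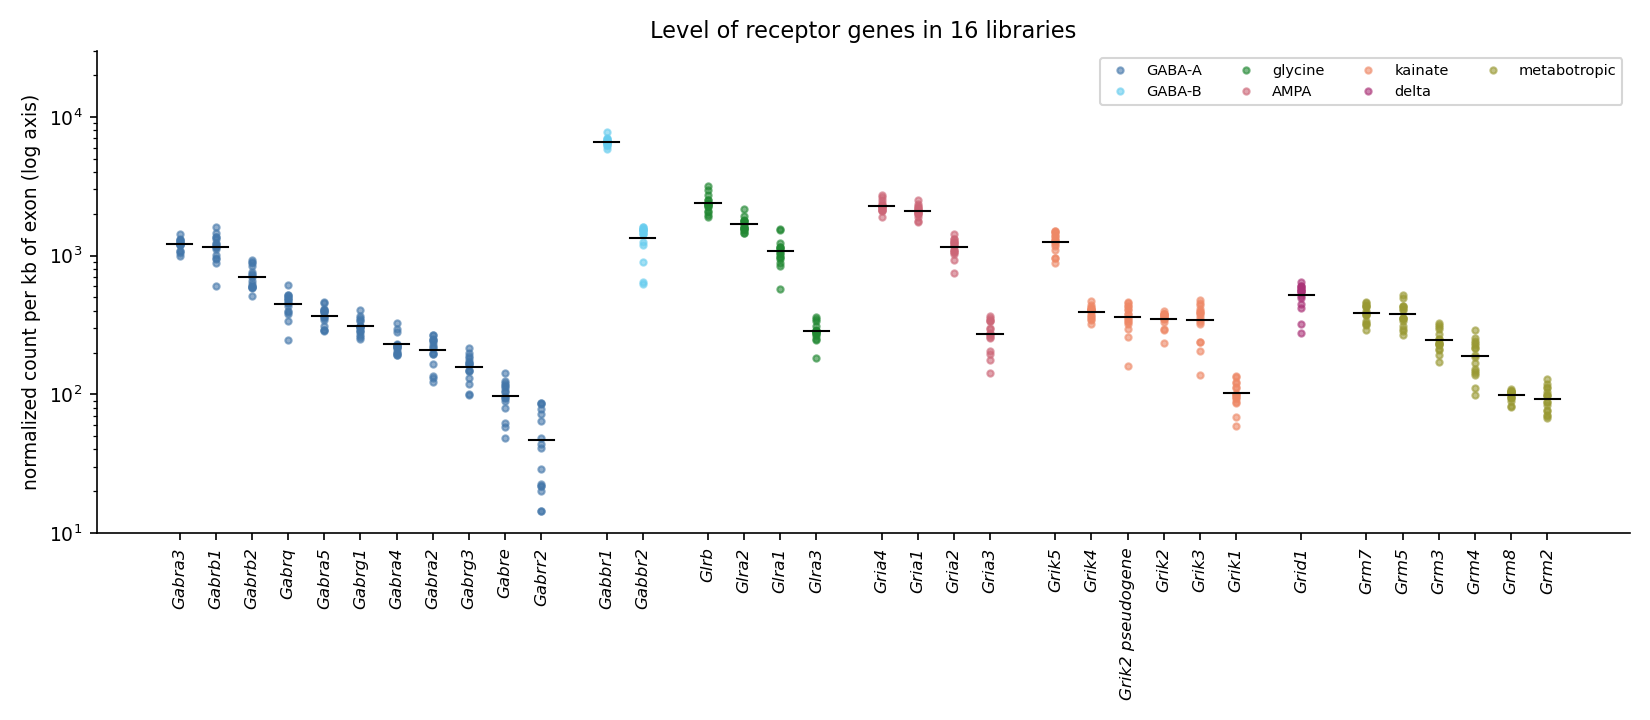
Normalized count per kb of merged exon (vertical axis, logarithmic) of 34 of the 39 rows in the 16 libraries, by family. Points are libraries and lines are means. Gabbr1 stands at 6639 and Gabrr2 at 46.8.

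Summed over their rows, the inhibitory receptors stood at 20162 to 25070 per kb and the excitatory receptors at 8984 to 11820 per kb. The excitatory sum leaves out the Grik2 pseudogene row. Their ratio was 1.98 to 2.51 over the 16 libraries. The mean ratio was 2.26 ± 0.177 (SD, n = 3) in control saline, 2.30 ± 0.159 (SD, n = 3) in control DEX, 2.04 ± 0.0453 (SD, n = 2) in PS saline, 2.10 ± 0.104 (SD, n = 3) in PS DEX, 2.23 ± 0.242 (SD, n = 3) in AS saline and 2.09 ± 0.0509 (SD, n = 2) in AS DEX. Within each phenotype the saline and DEX groups overlapped on this ratio. The ratio is weighted towards Gabbr1, the most abundant row. Without it the ratio was 1.505 to 1.589 in control saline and 1.598 to 1.815 in control DEX, which lie close but do not overlap. In PS it was 1.417 to 1.521 under saline and 1.405 to 1.559 under DEX, which overlap. In AS it was 1.461 to 1.778 under saline and 1.483 to 1.5 under DEX, which overlap as well. With every row weighted equally (the mean log2 deviation of the inhibitory rows minus that of the excitatory rows), the values were -0.18 to 0.02 in control saline and 0.03 to 0.25 in control DEX, and -0.16 to -0.10 in PS saline and -0.0036 to 0.12 in PS DEX, without overlap in either phenotype. In AS they were -0.15 to 0.19 under saline and -0.01 to 0.01 under DEX, which overlap. The inhibitory rows here include Gabrr2, whose own groups did not overlap in any phenotype. The measure was not taken without Gabrr2, so it is not separate from that result. Of the libraries 3 stood apart, dep2_sal_40 at 2.51, con_dex_116 at 2.49 and con_sal_104 at 2.46, while the other 13 lay between 1.98 and 2.22. They belong to 3 different groups. With Gabbr1 left out of the ratio con_sal_104, at 1.589, lay within the range of the others (1.405 to 1.627), and only dep2_sal_40 at 1.778 and con_dex_116 at 1.815 stood above it. Without these 3 libraries, a choice made after seeing the data, limma called 2 rows in controls, 2 in the average over phenotypes and 0 in either stressed phenotype. The share of all genes called in that fit is not given, so these counts are a description only. Gabrr2 differed by 1.65 in the average there (adjusted p = 0.00129 by limma).

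In dep2_sal_40 the split ran within families. It held the lowest value of 9 rows and the highest value of 5 rows. Gabbr2 was at 4138 normalized counts against 10432 and 10248 in the other AS saline libraries, and Grid1 at 1658 against 3615 and 3042. Gabrg1 was at 3204 against 2305 and 2419. The library con_sal_104 held the lowest value of 10 rows and con_sal_114 of 8 rows. The highest value of 9 rows was in dep1_sal_68, 1 of the 2 PS saline libraries, and that of 7 rows in dep2_dex_42. The summed motor neuron markers were also highest in dep1_sal_68, at 8890 normalized counts. The median SD within groups was 0.249 on the log2 scale over the 39 rows and 0.207 over all genes, and 27 of the 39 rows were above the median of all genes. With the length and GC trend removed these medians were 0.247 and 0.184. Of the 39 rows Gabbr1 had the smallest SD within groups, 0.096, and Gabbr2 the largest, 0.517.

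**Figure D5:**
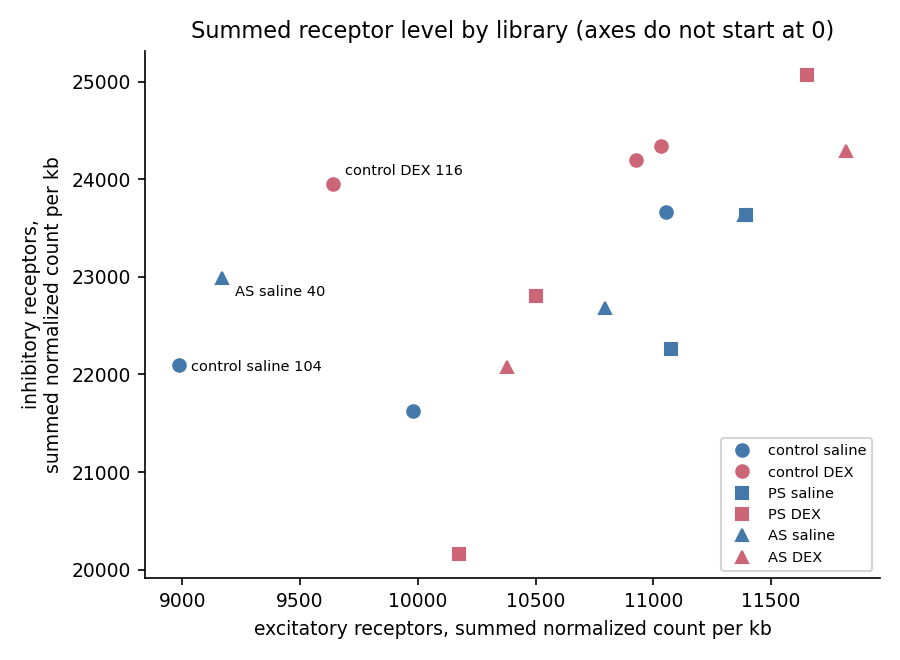
Summed level of the 20 inhibitory receptor rows (vertical axis) against that of the excitatory rows without the Grik2 pseudogene row (horizontal axis), in normalized counts per kb. Each point is a library, colour gives the injection and shape the phenotype (dep1_sal_68 and dep2_sal_8 nearly coincide). The 3 named libraries have the highest ratios, 2.46 to 2.51.

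With the Grik2 pseudogene row set aside, 15 of the rows lie beside other members on their chromosome (within 1000000 bases of the next). The averaged DEX differences of some of them are given by group. On chromosome 5 (chr5:70751047-72149037) Gabrg1, Gabra2 and Gabra4 lie on the minus strand and Gabrb1 on the plus strand, and their averaged DEX differences ran from -0.10 for Gabra4 to 0.40 for Gabrb1. On chromosome 7 the difference was 0.16 for Gabrg3 and 0.11 for Gabra5. On the X chromosome (chrX:72255999-72842602) Gabre, Gabra3 and Gabrq ran from -0.02 to 0.19. Gria2 and Glrb are neighbours on chromosome 3 (chr3:80681450-80913660), with averaged differences of 0.25 for Gria2 and -0.09 for Glrb.

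The genes that make and move the transmitters gave 2 calls by limma. Over all 14504 genes, limma called 4.31% in the average over phenotypes, and 14% reached an unadjusted p under 0.05. DESeq2 called 904 of all genes and edgeR 622. Of 11 measured genes of GABA and glycine synthesis, transport and breakdown, 0 were called for DEX in the average, with a median of 0.053 and 1 at an unadjusted p under 0.05 by limma. DESeq2 called 1 and edgeR 0. Gad1 and Gad2, the enzymes that make GABA, differed by -0.07 (SE 0.116) and 0.05 (SE 0.132). Slc32a1, which fills vesicles with GABA and glycine, differed by -0.13 (SE 0.151), and Slc6a5 by 0.80 (SE 0.602). Of 12 measured genes of glutamate synthesis, transport and clearance 2 were called upward in the average by limma, 3 by DESeq2 and 1 by edgeR, with a median of 0.008. Glul, the astrocyte enzyme that turns glutamate into glutamine, rose by 0.37 (SE 0.075, adjusted p = 0.0118), and Slc38a2, a glutamine carrier, rose by 0.25 (SE 0.072, adjusted p = 0.0929). The vesicular glutamate transporters Slc17a6 and Slc17a8 differed by -0.12 (SE 0.231) and -0.01 (SE 0.179), and Slc17a7 is not among the genes of the table. Of 16 genes of the inhibitory postsynaptic scaffold 0 were called in the average, with 1 up and 1 down at an unadjusted p under 0.05 by limma and 0 called by DESeq2 or edgeR. Of 38 genes of the excitatory scaffold 0 were called by limma, DESeq2 or edgeR, with 2 up and 2 down at an unadjusted p under 0.05 by limma. Under saline 0 genes of the 4 lists were called between phenotypes by limma, DESeq2 or edgeR. At an unadjusted p under 0.05 by limma the counts were at most 3 per list and comparison. The shares of all genes were 7.67% in PS against control, 2.39% in AS against control and 3.41% in AS against PS.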

How the data were processed

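Strand-specific poly(A) libraries of the dorsal raphe nucleus were processed by the authors with fastp 0.20.1, HISAT2 2.2.1 to mm10 (GRCm38), featureCounts of Subread 2.0 on annotation vM22 and DESeq2 1.36.0. Whether counting used strand is not given in the sources used here, and the sources differ on the sequencer. The deposited values are a normalized signal per gene, counts divided by a size factor per library. Dividing the smallest steps out gave whole reads for 100% of values (tolerance 0.1). The other deposited tables hold the authors' fold changes and p-values and were not used. The study describes more raphe libraries, which are not analysed here.

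Main tests were made with limma 3.58.1 in R 4.3.3 on log2(value + 1) with 6 group means, an intensity trend and 14 comparisons, where fold changes understate low genes. Residual df were 10 and prior df 3.88. DESeq2 1.42.0 and edgeR 4.0.16 on the recovered reads were alternatives, besides pseudocounts 0.1 and 10, mean filters of 1 and 100, TMM and quantile scaling, library weights, only the groups compared, a length and GC trend, marker scores as covariates and each library left out. The functions were tested on simulated data. Exon lengths came from GENCODE vM21 (14493 genes matched), promoters from RefSeq. Within groups 14 library pairs had correlations of 0.958 to 0.987 and none agreed within sampling noise. Nothing gives a batch, and each library is one animal by its number. Named members were those called, the 3 with the smallest p in each of the first 7 comparisons, and the highest and lowest per-kb level of each family. Further members, such as Glra1, Gabra3, Gabra4, Gabrq, Glra2 and Grik3, were chosen after their values were seen. Members and lists were chosen with earlier results of these data known. Single values of 5 members are not reported here. These members are counted in the family totals.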

Additional observations from a re-analysis of the deposited data

How the results depend on the processing

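The groups hold 2 or 3 libraries, so leaving out a library or changing the fit moved most small counts. The Gabrr2 call in the average over phenotypes held in every alternative that tested the gene. The Gabrb1 calls were lost in 14 of 31 alternatives in controls and in 12 of 30 in the average. Counts of called members moved as follows. The share of all genes called in each of these fits is not set beside them. A move of these counts therefore cannot be told from a move over all genes. In controls, 2 became 1 with a mean filter of 100, with quantile scaling and with the length and GC trend removed, 0 with only the groups compared and 7 with the GABA neuron covariate, and 0 to 3 with a library left out. In PS, 0 became 1 with library weights, whose estimation stopped before convergence. In AS, 0 became 1 with DESeq2, library weights and the length and GC trend removed, and 0 to 1 with a library left out. In the average, 2 became 1 with a mean filter of 100 and with the cerebellum covariate (5 of 11 markers in the table), and 1 to 3 with a library left out. For any difference among the 6 groups, 1 became 0 with a mean filter of 100 and 2 with DESeq2, library weights and the GABA neuron or cerebellum covariate, and 0 to 1 with a library left out.

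The inhibitory minus excitatory median log2 difference for DEX was -0.053 to 0.155 with a library left out in controls, 0.262 with the cerebellum covariate in PS, and 0.058 with the length and GC trend removed and 0.056 with the GABA neuron covariate in AS. For PS against control under saline it was -0.0102 with the trend removed and -0.361 to -0.049 with a library left out. For AS against control it was -0.134 to 0.136 with a library left out and -0.102 without the 3 libraries that stood apart, an alternative chosen after seeing the data. For AS against PS it was 0.00685 with the trend removed and 0.083 to 0.268 with a library left out. Gria2 in controls reversed to -0.0625 with the trend removed, and Gabrg1 in AS against control under saline reversed to -0.0102 without the 3 libraries. The cause of these moves was not tested. No paired analysis was possible because the labels give the groups no shared replicate numbers.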
